A study of Mus musculus with 3 samples.

Results

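Mir126a is the mouse hairpin precursor of miR-126a, and its 2 arms, miR-126a-3p and miR-126a-5p, are described here in 3 liver small RNA libraries. The arms were chosen by locus and not by their values: every sequenced insert that matched the Mir126a hairpin was taken, and the arms are 2 of the 420 miRNA arms measured, or 2 of 400 once the arms of miR-122 and of the let-7 loci are set aside. Each library came from liver of C57BL/6 mice, an inbred strain, taken 4 weeks after they received scAAV9, a vector made from self-complementary adeno-associated virus. The mock vector carried no decoy, and the other vectors carried a Tough Decoy (TuD), a transcribed hairpin RNA with exposed miRNA binding sites, against miR-122 or against let-7. All groups, mock included, received the vector, and an uninjected liver was not analysed here. The labels do not state the number, age or sex of the mice behind a library. The series asked how such decoys affect miRNA stability and integrity, and neither arm of Mir126a is a decoy target. With 1 library per group no difference has a replicate check, no test between groups was made, and every interval below is a 95% interval that covers counting error only.

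miR-126 is the best known miRNA of endothelial cells, the cells that line blood vessels and, in liver, the sinusoids. It is made from an intron of Egfl7, a gene for a secreted endothelial protein, and both arms of its hairpin are loaded into Argonaute. miR-126a-3p is known for repressing Spred1 and Pik3r2, inhibitors of growth factor signalling in vessels, and miR-126a-5p for repressing Dlk1 in endothelial proliferation. A miRNA finds its targets mainly through its seed, bases 2 to 8 from the 5′ end, so a start moved by 1 base gives another seed. Its 3′ end can lose bases or gain untemplated A or U after processing.

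The Mir126a hairpin is shown because every position below refers to it, with the most frequent forms of both arms in capitals. It is credited to RefSeq and read on the plus strand of GRCm38.
Mir126a hairpin: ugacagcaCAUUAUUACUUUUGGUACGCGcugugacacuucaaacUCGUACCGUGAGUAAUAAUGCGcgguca

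The reads gave both arms at more than 1 length or start, and these are the forms on which the results turn, with bases 2 to 8 of each form in capitals. The first line is RefSeq's mature miRNA, and the others were copied from the deposited inserts, which write T for U.
mmu-miR-126a-3p, RefSeq: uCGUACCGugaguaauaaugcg
miR-126a-3p, main start: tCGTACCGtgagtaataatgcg
miR-126a-3p, start 1 nt downstream: cGTACCGTgagtaataatgcg
miR-126a-3p, start 1 nt upstream: cTCGTACCgtgagtaataatgc
miR-126a-5p, main form: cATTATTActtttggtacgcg
miR-126a-5p, 20-nt form: cATTATTActtttggtacgc

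The hairpin (Mir126a, ENSMUSG00000065540.1) spans chr2:26591357-26591429 on the plus strand of GRCm38, 73 nt in all. The main form of miR-126a-5p covers chr2:26591365-26591385 (21 nt), that of miR-126a-3p covers chr2:26591402-26591423 (22 nt), and 16 nt lie between them. The locus is inside Egfl7 (ENSMUSG00000026921.18, chr2:26580014-26593120, same strand). Of 19 annotated Egfl7 transcripts 9 span the hairpin, which is intronic in 8 of them, for example in intron 7 of the 10-exon transcript Egfl7-201, and lies in exon 4 of Egfl7-206, a transcript with a retained intron. Counting any start, 45090 reads of mock, 59345 of TuD-miR-122 and 15984 with TuD-let-7 matched the hairpin. None of them matched another miRNA precursor, so both arms could be counted without shared reads. Of the 16 nt between the arms, only the base just before the 3p arm was a start of reads, and reads that matched only Egfl7 outside the hairpin numbered 4, 4 and 1.

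The libraries held 2066892 to 3681585 reads, of which 72.0 to 78.5% were assigned to miRNAs. Levels are in RPM, a library's reads of an arm scaled to 1000000 miRNA reads of the 400 non-target arms, so that a change in a decoy's target does not move the scale. Where 3 values stand without names, their order is mock, TuD-miR-122, TuD-let-7. There were 1377808 such reads in mock, 1452494 in TuD-miR-122 and 487713 with TuD-let-7, so TuD-let-7 is the least precise library and 1 read there stands for 2.05 RPM, against 0.726 in mock. Markers of the labelled tissue were present, as all 5 miRNAs of a hepatocyte list were detected in each library, at 152376 to 209414 RPM in sum. Members of that list differed between libraries: miR-802-5p had 1131, 575 and 201 RPM, while 3 of the 5 were above mock in TuD-let-7. Lists for other cell types differed between the libraries too. The summed level of 3 skeletal muscle miRNAs was 9739 RPM in mock, 921 in TuD-miR-122 and 213 with TuD-let-7, and that of 4 pancreatic miRNAs was 119, 1612 and 162 RPM, with no member of either list at 0. The part that such differences in tissue content play in the values of Mir126a was not tested.

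miR-126a-3p was among the abundant miRNAs of all 3 livers, and its level was higher in the TuD-miR-122 library than in mock. It had 22434 reads in mock, 30323 in TuD-miR-122 and 8548 with TuD-let-7, which is 16282 RPM (16070 to 16497), 20877 RPM (20642 to 21113) and 17527 RPM (17157 to 17902). It ranked 13th, 12th and 15th among the 400 arms. TuD-miR-122 was the highest of the 3 libraries, mock the lowest, and no counting interval overlapped another. The level in TuD-miR-122 was 1.28 times that of mock (1.26 to 1.30), and 57 of the 227 arms with enough reads to compare had a higher ratio. TuD-let-7 stood at 1.08 times mock (1.05 to 1.10) on this scale but at 0.636 when RPM was taken on all reads, so the direction of that difference depends on the scale. TuD-let-7 over TuD-miR-122 was 0.840 (0.820 to 0.860).

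miR-126a-5p was the less abundant arm in each library and was lowest in TuD-let-7. Its 10283, 11472 and 2163 reads are 7463 RPM in mock (7320 to 7609), 7898 RPM in TuD-miR-122 (7754 to 8044) and 4435 RPM with TuD-let-7 (4250 to 4626), at ranks 29, 26 and 31. Mock and TuD-miR-122 lay close together, at a ratio of 1.06 (1.03 to 1.09). TuD-let-7 was at 0.594 of mock (0.567 to 0.623) and at 0.562 of TuD-miR-122 (0.536 to 0.588). On all reads the first of these was 0.351, in the same direction. Of the 193 arms compared between TuD-let-7 and mock, 26 had a lower ratio than miR-126a-5p, and the median over them was 0.983.

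A ratio was counted as past 2-fold when its whole interval lay above 2 or below 0.5. By that rule 0 of 2 Mir126a arms were past 2-fold in TuD-miR-122 over mock, where 18.5% of 227 arms were. The count was also 0 of 2 in TuD-let-7 over mock (7.77% of 193 arms) and in TuD-let-7 over TuD-miR-122 (20.2% of 213 arms). The counts depend on the scale. When RPM was taken on all reads, miR-126a-5p was past 2-fold, and lower, in TuD-let-7 over mock, at 0.351 (0.335 to 0.368), so 1 of 2 arms was past it there, beside 21.8% of 193 arms. It was also past 2-fold in TuD-let-7 over TuD-miR-122, at 0.336 (0.321 to 0.352), again 1 of 2, beside 30.5% of 213 arms. In TuD-miR-122 over mock the count was 0 of 2 on that scale, beside 18.1% of 227 arms. These comparisons share libraries, so they are not independent of each other. From the level of 1 arm in whole liver, fewer endothelial cells and less miR-126a per cell cannot be told apart. The arms did not move alike in TuD-let-7 over mock, at 1.08 for miR-126a-3p and 0.594 for miR-126a-5p on non-target reads. The part of either in these values was not tested.

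**Figure D1:**
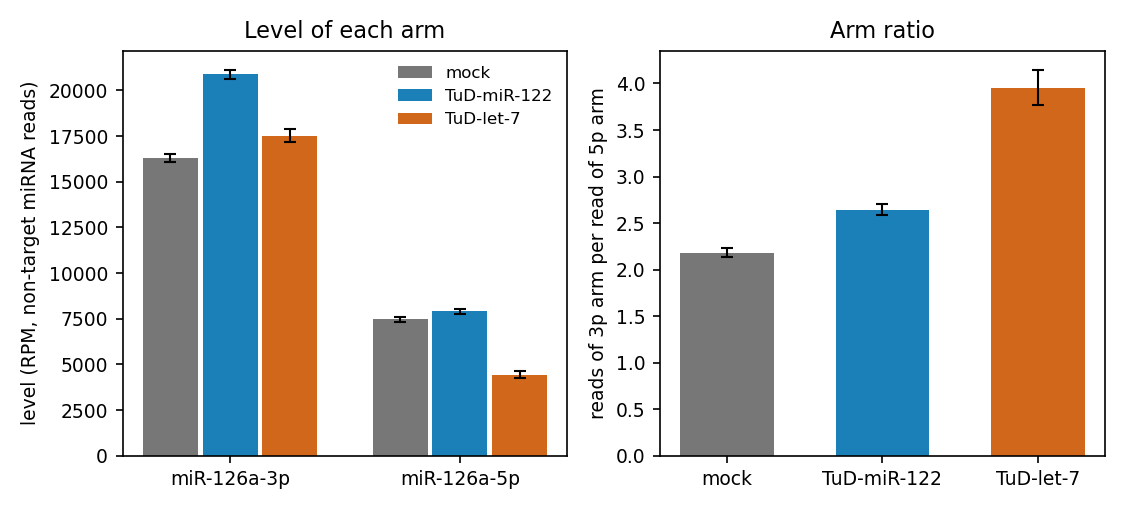
Left, the level of each Mir126a arm in RPM of non-target miRNA reads, 1 bar per library, with exact Poisson 95% counting intervals; right, reads of the 3p arm per read of the 5p arm, with exact 95% intervals. The 3p arm was highest in TuD-miR-122 (20877 RPM), the 5p arm was lowest in TuD-let-7 (4435 RPM), and the arm ratio ran from 2.18 in mock to 3.95 in TuD-let-7.

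The arms come from the same hairpin, so their ratio within a library needs no scaling between libraries. There were 2.18 reads of miR-126a-3p per read of miR-126a-5p in mock (2.13 to 2.23), 2.64 in TuD-miR-122 (2.59 to 2.70) and 3.95 with TuD-let-7 (3.77 to 4.14). Put as a share, the 5p arm made up 31.4%, 27.4% and 20.2% of the reads of both arms. The order was therefore mock, TuD-miR-122, TuD-let-7, with no overlap of the counting intervals. Against mock the arm ratio was 1.21 times higher in TuD-miR-122 (1.17 to 1.25) and 1.81 times higher in TuD-let-7 (1.72 to 1.91), and TuD-let-7 was 1.495 times TuD-miR-122 (1.42 to 1.57). These ratios count reads at the main start of each arm. When starts within 2 nt were counted too they were 3.29, 4.08 and 6.23, in the same order.

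Arm ratios of other hairpins moved as well. Among the 15 precursors with at least 100 reads of each arm in every library, 26.7% had an arm ratio that differed at least 1.5-fold between TuD-let-7 and mock, Mir126a among them, and 1 had a larger difference in either direction than Mir126a. That precursor was Mir22, whose main arm is abundant in hepatocytes. Its 3p reads per 5p read were 9.85 in mock, 13.7 in TuD-miR-122 and 18.8 with TuD-let-7, the same order as Mir126a. Mir140, known from cartilage, followed with 5.29, 6.87 and 7.63. Mir28a, an intronic miRNA of Lpp, had 0.275, 0.372 and 0.361, so both decoy libraries were above mock there. These 3 were the nearest to Mir126a in how the arm ratio differed from mock, so they were picked for their likeness. The direction was not common to all precursors. Of those that reached 1.5-fold between TuD-let-7 and mock, Mir126a and Mir22 had a higher arm ratio in TuD-let-7. Mir30a and Mir362 had a lower one, at 0.652 and 0.568 of mock. Between TuD-miR-122 and mock, 8 of the 15 precursors had a larger difference than Mir126a, and 13.3% reached 1.5-fold, Mir126a not among them. Between TuD-let-7 and TuD-miR-122, 33.3% reached 1.5-fold and the 1.495-fold of Mir126a lay just under that limit.

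The 3p arm was read from 2 main starts in every library, and so carried 2 seeds. Of all its reads, those that began exactly at the main start made up 64.9% in mock (64.4 to 65.4), 63.6% in TuD-miR-122 (63.2 to 64.1) and 62.1% with TuD-let-7 (61.3 to 62.9). Reads that began 1 nt downstream numbered 11418, 16107 and 4895 and made up 33.0% (32.5 to 33.5), 33.8% (33.4 to 34.2) and 35.5% (34.7 to 36.4). The start 1 nt upstream held 1.12%, 1.34% and 0.733%, and that 2 nt downstream 0.954%, 1.17% and 1.60%. The share of the second start differed by under 3 points across the libraries. The main start reads the seed CGUACCG, which among the 1738 mature mouse miRNAs of the RefSeq table belongs to mmu-miR-126a-3p alone. The start 1 nt downstream reads GUACCGU and the start 1 nt upstream UCGUACC, and no miRNA of that table has either seed. The table is not complete, as it holds no mature mmu-miR-126a-5p and 0 entries with that arm's main seed, AUUAUUA.

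The 5p arm had a single start by comparison. Reads at its main start made up 97.8% in mock, 98.1% in TuD-miR-122 and 97.7% with TuD-let-7, and those 1 nt downstream 2.08%, 1.78% and 2.03%. That minor start reads the seed UUAUUAC, which the table lists for mmu-miR-126b-5p, the miRNA annotated on the opposite strand of the locus. Reads on the opposite strand numbered 3 in mock, 8 in TuD-miR-122 and 3 with TuD-let-7, or 2.18, 5.51 and 6.15 RPM, where 3 reads are 2.18, 2.07 and 6.15 RPM. Mir126b was thus at or near the limit of detection beside its sense partner.

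Start variation of this size was not common among abundant arms. Reads within 2 nt of the main start but not at it made up 35.1%, 36.3% and 37.9% of miR-126a-3p in the 3 libraries, with medians over arms of 1.79%, 1.89% and 1.83%. Arms with at least 20% of reads off their main start made up 14.6% of 82 arms in mock, 11.8% of 85 in TuD-miR-122 and 13.7% of 51 in TuD-let-7. The number of arms with a larger share than miR-126a-3p was 5, 1 and 1. miR-126a-5p lay near the median, at 2.09%, 1.81% and 2.13%.

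The 2 starts of miR-126a-3p differed in their 3′ tails, and did so in each library. A tail of only T can stand for added uridine or for a last base misread as T. At the main start, tails of only T were on 3.20% of reads in mock (2.97 to 3.43), 3.87% in TuD-miR-122 (3.66 to 4.10) and 3.45% with TuD-let-7 (3.07 to 3.86). At the start 1 nt downstream they were on 21.3% (20.6 to 22.1), 19.6% (18.96 to 20.2) and 19.1% (18.0 to 20.2). The differences were 18.1, 15.7 and 15.6 points, each with an interval far from 0. At the start 2 nt downstream, tails of only T were on 19.1%, 18.996% and 10.4% of 330, 558 and 221 reads, and at the start 1 nt upstream on 1.81%, 1.56% and 1.98% of 386, 639 and 101 reads.

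Tails of only A went the other way. They were on 37.3%, 32.5% and 36.2% of reads at the main start of miR-126a-3p, and on 26.9%, 26.6% and 25.7% of reads 1 nt downstream. The tailed forms are shown because they share the last matching base and differ in the first, with the added base in capitals.
miR-126a-3p, main start, A added: tcgtaccgtgagtaataatgcgA
miR-126a-3p, main start, T added: tcgtaccgtgagtaataatgcgT
miR-126a-3p, 1 nt downstream, A added: cgtaccgtgagtaataatgcgA
miR-126a-3p, 1 nt downstream, T added: cgtaccgtgagtaataatgcgT
The form with T added had 588, 979 and 243 reads from the main start and 2329, 3041 and 829 reads from the start 1 nt downstream. In read counts, then, this form was more frequent at the less used start. The form with A added had 7031, 8052 and 2679 reads from the main start and 2651, 3818 and 1103 from the other. Both starts ended at the same place: the last matching base was at 26591423 of chromosome 2 in 80.7%, 80.1% and 81.7% of reads from the main start and in 88.7%, 89.6% and 82.4% of reads from the start 1 nt downstream. Reads from the start 1 nt upstream were mostly without a tail, in 92.0%, 90.5% and 90.1%.

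A difference in T tails between adjacent starts also occurred in other arms. Of arms with at least 500 reads at both starts, the T-tailed share differed by at least 10 points in 44.4% of 9 arms in mock, 30.8% of 13 in TuD-miR-122 and 80.0% of 5 in TuD-let-7, miR-126a-3p included each time. The others were miR-101b-3p and miR-203-3p, with more T at the downstream start as in miR-126a-3p, and miR-192-5p, with less. In mock the shares at the main and the downstream start were 8.997% and 34.9% for miR-101b-3p, 19.3% and 37.4% for miR-203-3p, and 27.0% and 10.5% for miR-192-5p. For A tails, miR-126a-3p had the lowest difference of the 9, 13 and 5 arms, at -10.4, -5.85 and -10.6 points.

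**Figure D2:**
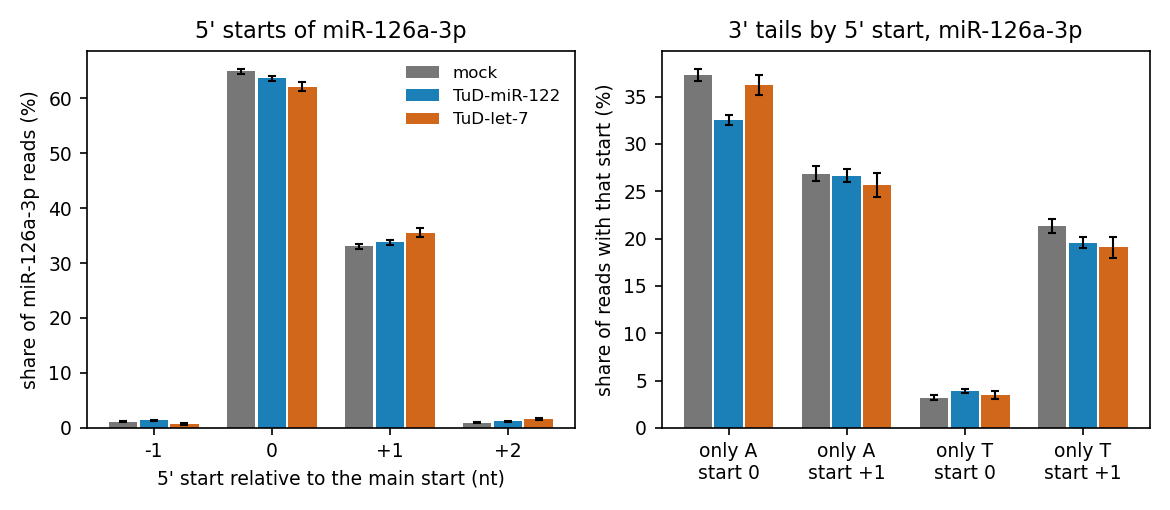
Left, share of miR-126a-3p reads at each 5′ start relative to the main start, in percent; right, share of reads with a tail of only A or only T at the main start and at the start 1 nt downstream, 1 bar per library, with Clopper-Pearson 95% intervals. About 33.0 to 35.5% of reads used the downstream start, where T tails stood on 19.1 to 21.3% of reads against 3.20 to 3.87% at the main start.

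At its main start, miR-126a-3p differed little in length between libraries. Its matching part was 22 nt in 80.7% of reads in mock, 80.1% in TuD-miR-122 and 81.7% with TuD-let-7. Reads with a matching part under 21 nt, called trimmed here, made up 11.4%, 10.2% and 10.6%. Reads with any tail made up 44.3%, 39.3% and 44.7%. The difference from mock was -4.96 points in TuD-miR-122 (-5.81 to -4.11), where 7 of the 74 arms compared had a lower value and the median was -0.955 points. In TuD-let-7 it was 0.437 points (-0.800 to 1.68), which is not detectable at this depth. The untailed form 1 base longer, 23 nt, was rare but uneven, with 42 reads in mock, 306 in TuD-miR-122 and 43 with TuD-let-7.
miR-126a-3p, 23 nt: tCGTACCGtgagtaataatgcgc
In RPM that form was 6.91 times mock in TuD-miR-122 (4.99 to 9.78) and 2.89 times mock in TuD-let-7 (1.85 to 4.53), while the 22-nt form was at 1.38 and 1.10 times mock. The last base of the 23-nt form matches the hairpin, so it was counted as untailed.

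miR-126a-5p differed more between libraries in its 3′ end, and its 20-nt form was below mock in both decoy libraries. It had 2240 reads in mock, 1324 in TuD-miR-122 and 192 with TuD-let-7, or 21.8%, 11.5% and 8.88% of reads at the main start, while the 21-nt form had 5503, 7018 and 1147 reads, or 53.5%, 61.2% and 53.0%. In RPM the 20-nt form was at 0.561 of mock in TuD-miR-122 (0.523 to 0.6004) and at 0.242 in TuD-let-7 (0.208 to 0.281), and the 21-nt form at 1.21 (1.17 to 1.25) and 0.589 (0.552 to 0.628). The 19-nt form went with the 20-nt one, at 233, 147 and 10 reads. Mock was thus the library richest in 5p reads that had lost 1 or 2 bases.

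In TuD-miR-122 this accounted for most of the difference in trimmed reads, which was -11.1 points for miR-126a-5p. Untailed reads 1 nt shorter than the main form made up 21.8% in mock and 11.5% in that library, and those 2 or more nt shorter 2.28% and 1.31%. Arms that differed by at least 10 points in trimmed share made up 1.35% of the 74 compared, and that is 1 arm, miR-126a-5p, and 0 had a lower value. The limit of 21 nt is the same for every arm, however long its main form. For miR-126a-5p, with a main form of 21 nt, 1 lost base counts as trimmed. An arm of 22 nt, such as miR-126a-3p, must lose 2, so this rank compares unlike amounts of trimming. With trimming set at under 20 nt the difference was -1.03 points. Between TuD-let-7 and mock the trimmed share differed by -2.29 points (-4.28 to -0.231), but the reads behind it were of different kinds. Matching parts of 20 nt made up 22.8% in mock and 11.2% in TuD-let-7, while those of 18 nt made up 0.408% and 7.40% and those of 16 nt 0.321% and 4.48%. With trimming set at under 20 nt the difference was 9.24 points, the other direction.

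Those short matching parts did not end at the short form. Of the 97 TuD-let-7 reads of miR-126a-5p with 16 matching bases, 99.0% went on with 1 base that differed from the hairpin and then with hairpin sequence again, as did 66.9% of the 160 reads with 18 matching bases. No read of either group was untailed. Over the whole arm such reads, called returning here, numbered 97 in mock, 129 in TuD-miR-122 and 206 with TuD-let-7, or 0.943% (0.766 to 1.15), 1.12% (0.940 to 1.33) and 9.52% (8.32 to 10.8). Returning reads in TuD-let-7 were at 6.00 times mock in RPM (4.69 to 7.72), when the arm as a whole was at 0.594. An example is shown with the differing base in capitals, 19 bases from the 5′ end.
miR-126a-5p, returning form: cattattacttttggtacTcg
It had 9 reads in mock, 17 in TuD-miR-122 and 76 with TuD-let-7.

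Returning reads bear on the tailed share of miR-126a-5p, which was 21.7% in mock, 25.3% in TuD-miR-122 and 36.5% with TuD-let-7. The difference from mock was 3.65 points in TuD-miR-122 (2.53 to 4.78) and 14.8 points with TuD-let-7 (12.7 to 17.04). In TuD-let-7, 14.3% of the 49 arms compared differed by at least 10 points and 0 had a higher value than miR-126a-5p. When returning reads were counted as untailed the TuD-let-7 difference was 6.27 points (4.27 to 8.33), and for tails of only A it was 3.39 points (1.87 to 5.02). Tails of only A stood on 10.6%, 13.1% and 14.0% of reads, and tails of only T on 8.89%, 9.38% and 8.55%. The A tails were thus higher in both decoy libraries than in mock, and the T tails nearly level. Among reads with 20 matching bases, T followed in 0.598% in mock, 1.03% in TuD-miR-122 and 13.2% with TuD-let-7, and there a 20-nt form with T added and a 21-nt form with its last base read as T cannot be told apart.

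**Figure D3:**
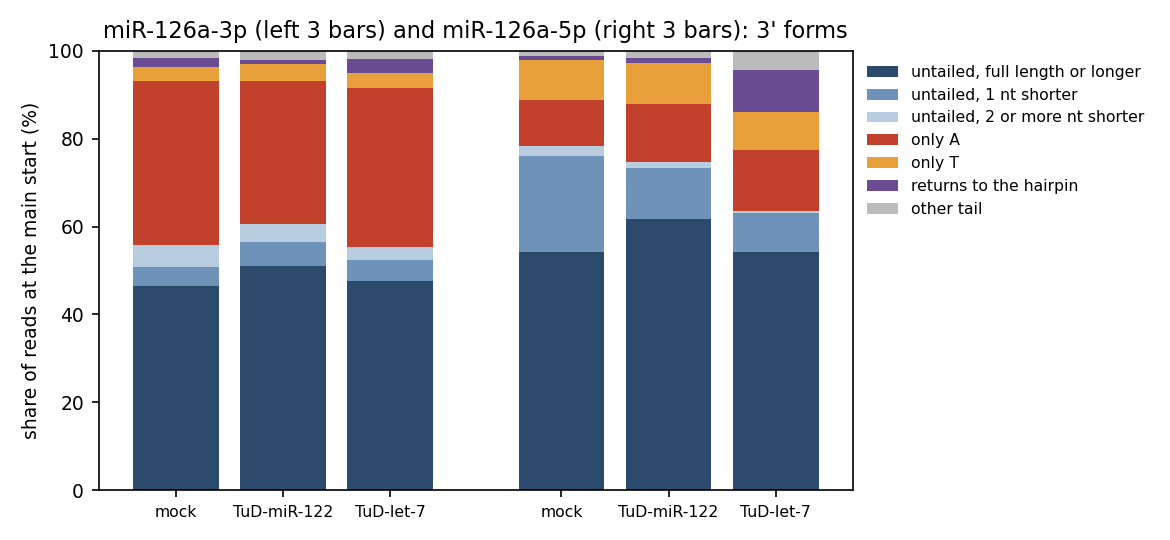
Share of reads at the main start of miR-126a-3p (left 3 bars) and miR-126a-5p (right 3 bars) by 3′ form, in percent of the arm's reads in each library. In miR-126a-5p the untailed form 1 nt shorter made up 21.8% in mock and 8.88% in TuD-let-7, and reads that return to the hairpin made up 9.52% there; the bars of miR-126a-3p are close to each other.

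Single base differences inside the arms were counted next, with positions counted from 1 at the 5′ end of the arm, the hairpin's base first and the read's base last. Reads with 1 such difference made up 10.7% of miR-126a-3p in mock, 7.997% in TuD-miR-122 and 18.8% with TuD-let-7, and 6.99%, 10.1% and 23.04% of miR-126a-5p. In TuD-let-7 a few positions held much of this, and the 7 changes at 2% or more in the 2 arms were all A-to-C or G-to-T. In miR-126a-5p they were A2C, a seed base, at 6.41% (0.0589% in mock), A8C, also in the seed, at 3.21% (1.27%), A17C at 5.91% (0.157%) and G19T at 5.05% (0.108%). In miR-126a-3p they were G10T at 4.95% (1.09%), G12T at 4.62% (1.10%) and A18C at 3.22% (1.66%). The TuD-miR-122 library had 1 such change, G14T of miR-126a-5p, at 3.67%, against 0.255% in mock and 1.06% in TuD-let-7.

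The same changes at the same positions were present in other miRNAs of the same library. Arms with at least 1 change at 2% or more made up 31.6% of 79 arms in mock, 42.7% of 82 in TuD-miR-122 and 100% of 48 in TuD-let-7. A2C stood on a median of 6.51% of reads over the 17 other arms of TuD-let-7 with A at position 2. G19T had a median of 11.04% over 18 other arms, G10T 9.28% over 15, G12T 6.33% over 6, A18C 4.07% over 13 and A8C 2.39% over 24. The values of Mir126a for these 6 changes lay below that median for A2C, G19T, G10T, G12T and A18C and above it for A8C. For G10T the 4.95% of miR-126a-3p lay below the whole range of the other arms, 5.24 to 12.06%, and for the rest of these changes the value lay within the range. A17C in TuD-let-7 had a median of 1.80% over 5 other arms with a range of 1.21 to 4.95%, which the 5.91% of miR-126a-5p exceeded. G14T in TuD-miR-122 had a median of 3.33% over 23 other arms, close to the 3.67% of miR-126a-5p.

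The 2 starts of miR-126a-3p place the same hairpin base at different positions of the read. The A that is base 18 from the main start is base 17 from the start 1 nt downstream, and the returning forms below carry C there, in capitals.
miR-126a-3p, main start, A18C: tcgtaccgtgagtaataCtgcg
miR-126a-3p, 1 nt downstream, A17C: cgtaccgtgagtaataCtgcg
The first had 174 reads in mock, 91 in TuD-miR-122 and 124 with TuD-let-7, or 0.776%, 0.3001% and 1.45% of reads with that start. The second had 5, 11 and 136 reads, or 0.0438%, 0.0683% and 2.78%. In mock and TuD-miR-122 the change was the more frequent at the main start, and in TuD-let-7 at the downstream one. The share at which one hairpin base was read as C thus differed with where the read began.

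**Figure D4:**
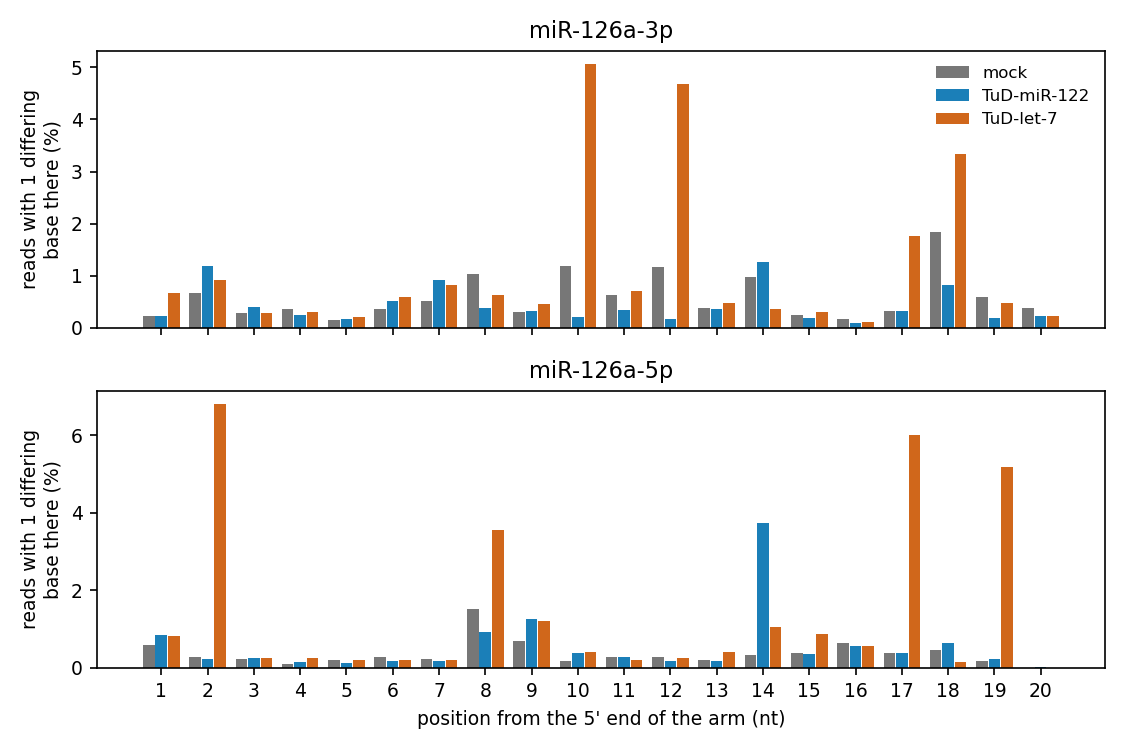
Share of reads with 1 differing base at each position of miR-126a-3p (top) and miR-126a-5p (bottom), in percent, by library; positions run from the 5′ end of the arm. TuD-let-7 is above both other libraries at positions 10, 12, 17 and 18 of the 3p arm (1.77% at 17 against 0.318 and 0.332%) and at 2, 8, 17 and 19 of the 5p arm, and TuD-miR-122 at 14 of the 5p arm. Smaller differences occur elsewhere, as at position 2 of the 3p arm, with 1.18% in TuD-miR-122 against 0.679% in mock and 0.921% in TuD-let-7.

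Other miRNAs linked to endothelial cells differed among themselves in direction against mock. All 11 members of an endothelial list, both Mir126a arms included, were detected in every library, and their summed level was 33397 RPM in mock, 37125 in TuD-miR-122 and 29519 with TuD-let-7. In TuD-miR-122 over mock 4 of 11 members had a ratio above 1, with a list median of 0.925 beside 0.986 over all arms compared, and 0 were past 2-fold. In TuD-let-7 over mock 3 of 11 were above 1, with a median of 0.683 beside 0.983 over all arms, and again 0 were past 2-fold. On all reads every TuD-let-7 ratio is multiplied by 0.591, so both counts depend on the scale: 0 of 11 members were then above 1 and 5 of 11 were past 2-fold, all of them lower, beside 21.8% of all arms. The 2 Mir126a arms made up most of the list's sum in each library.

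miR-221-3p, known for repressing Kit in vessel cells, had 1403 RPM in mock, 1606 in TuD-miR-122 and 1550 with TuD-let-7, the only other member above mock in both. miR-222-3p, from the same cluster as miR-221-3p, had 406, 251 and 217 RPM. miR-92a-3p, a restraint on vessel growth, had 3244, 2066 and 2216 RPM, so both decoy libraries were below mock for these latter 2. The level of miR-92a-3p sums the entries miR-92-1-3p and miR-92-2-3p, so it is not that of the miR-17-92 cluster alone. miR-10a-5p, from a Hox cluster, had 2380, 2416 and 1616 RPM, and miR-10b-5p, its relative, 97.3, 86.7 and 43.1 RPM. Like miR-126a-5p, both were lowest in TuD-let-7, as were miR-222-3p, miR-322-5p and miR-503-5p. For miR-10b-5p that value rests on 21 reads, and for miR-503-5p on 25. The decoy libraries lay closer together for miR-222-3p, miR-322-5p and miR-503-5p than for miR-126a-5p. miR-322-5p had 1244, 1175 and 1072 RPM and its cluster partner miR-503-5p 89.3, 60.6 and 51.3 RPM. miR-139-5p, from an intron of Pde2a, had 383, 315 and 326 RPM, and miR-151-5p, from an intron of Ptk2, 405, 375 and 465 RPM.

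Marker lists of other cell types in liver, given for context, were at 13503, 12802 and 10672 RPM for 6 immune miRNAs, 34515, 48522 and 30914 RPM for 3 erythroid ones, and 19558, 23117 and 22708 RPM for 4 of stroma and smooth muscle. Of these, the erythroid sum was highest in TuD-miR-122 and lowest in TuD-let-7, the order of miR-126a-5p. The stromal sum was highest in TuD-miR-122 and lowest in mock, the order of miR-126a-3p, but no member of that list had this order. miR-143-3p, most of the sum, had 14305, 17688 and 17988 RPM and was highest in TuD-let-7, as was miR-145a-5p. In contrast, miR-199a-3p, at 2656, 3175 and 1528 RPM, and miR-214-3p were lowest in TuD-let-7. No member of these lists was at 0 in any library. Whether a different make-up of cells or blood in the tissue has a part in the levels of Mir126a was not tested.

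Among the 80 non-target arms with at least 1000 mock reads, the 5 nearest to miR-126a-3p in their pair of log2 ratios to mock were miR-29a-3p, miR-25-3p, miR-365-3p, miR-221-3p and miR-143-3p, at distances of 0.12 to 0.23 on the log2 scale. miR-29a-3p, for example, was at 1.18 times mock in TuD-miR-122 and 1.09 with TuD-let-7. The 5 nearest to miR-126a-5p were miR-26b-5p, miR-199a-3p, miR-10a-5p, miR-32-5p and miR-16-5p, at 0.12 to 0.24. miR-26b-5p was at 0.980 and 0.613 of mock. The other Mir126a arm came only 59th for miR-126a-3p and 46th for miR-126a-5p. This likeness rests on 3 libraries and 2 ratios that share the mock library.

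**Figure D5:**
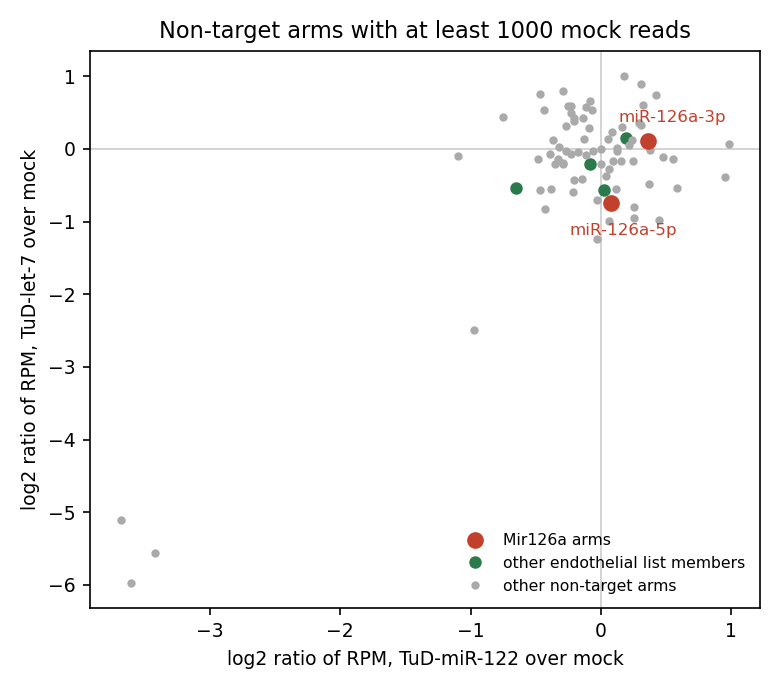
Each point is a non-target arm with at least 1000 mock reads, placed by its log2 RPM ratio to mock in TuD-miR-122 (x axis) and TuD-let-7 (y axis). miR-126a-3p is at 0.36 and 0.11, and miR-126a-5p at 0.08 and -0.75; both sit inside the main cloud, and the other endothelial list members lie on either side of 0.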

How the data were processed

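The deposited files give, for each distinct insert of 15 to 30 nt, a raw read count, not normalised. Per the labels' protocols, liver RNA of 18 to 30 nt was gel-purified. The sources used here do not give adapter removal, filters or an aligner.

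Arms came from the 1174 miRNA precursors of GENCODE release 21 for mouse (GRCm38), with the 5′ end set at the most frequent untailed start (at least 10 reads): 477 arms, merged by their first 22 nt to 420. A read was assigned when it began there and matched for at least 16 nt; the rest, up to 5 nt, was its tail. Reads that fitted several arms (0.336% of miRNA reads) stayed out of single arms. A returning tail has 1 differing base and then at least 2 matching nt. Ratios carry exact conditional-binomial intervals, shares Clopper-Pearson, differences of shares Newcombe, changes of arm ratio Woolf and RPM exact Poisson intervals (95%). Level ratios need 100 reads over both libraries, and differences of shares 1000 in each.

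The arms, lists, thresholds and rules for named miRNAs (list members, the 5 nearest arms, the 3 nearest precursors) were chosen with earlier results of these data known. The code was tested on simulated data (Python 3.11, SciPy 1.17.1).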

Additional observations from a re-analysis of the deposited data

Results flagged for a closer look

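The level of miR-126a-5p differed from mock in opposite directions in the decoy libraries, at 1.06 times mock in TuD-miR-122 and at 0.594 of mock in TuD-let-7. The first ratio was close to 1, and 97 of the 227 arms compared had a higher one. Each decoy had 1 library and both ratios share the mock library, so the difference was not tested.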

How the results depend on the processing

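Of 99 values under other settings, 56 lay inside the interval of the reported value, 40 lay outside it and 3 reversed. Of those not reversed, 4 changed sign, all of the miR-126a-3p tailed share in TuD-let-7, whose interval includes 0. Against mock, the TuD-miR-122 ratio of miR-126a-3p was 1.38 on all miRNA reads, 1.33 with size factors and 1.25 with 1 mismatch, and that of miR-126a-5p 1.14 and 1.09 with the first 2. The TuD-let-7 ratio of miR-126a-3p reversed to 0.636 on all reads and 0.683 on all miRNA reads, by the scale alone, and was 1.04 with size factors, 1.11 with starts within 2 nt, 1.02 with 1 mismatch and 1.11 with tails of at most 2 nt; that of miR-126a-5p was 0.351 on all reads, 0.377 on all miRNA reads and 0.554 with short tails. TuD-let-7 over TuD-miR-122 for miR-126a-3p was 0.502, 0.494, 0.783 and 0.812 under all reads, all miRNA reads, size factors and 1 mismatch, and for miR-126a-5p 0.336, 0.331, 0.524 and 0.523, and 0.525 with short tails. Reads of the 3p arm per 5p read were 3.29, 4.08 and 6.23 in the 3 libraries with starts within 2 nt, 2.24 and 2.59 in mock and TuD-miR-122 with 1 mismatch, and 4.31 in TuD-let-7 with short tails.

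For miR-126a-3p, the TuD-miR-122 difference in tailed share was -3.69 points with returning tails as untailed, and in trimmed share -1.99 under 20 nt, -0.283 with 1 mismatch and -0.148 with short tails; in TuD-let-7 the difference in tails of only A was -1.08 and in trimmed share with short tails -1.93. For miR-126a-5p, the TuD-miR-122 difference in trimmed share was -1.03 under 20 nt. In TuD-let-7 its tailed share difference was 11.1 with 1 mismatch, 7.22 with short tails, 3.39 for only A and 6.27 with returning tails as untailed, and its trimmed share difference -6.70 with 1 mismatch, -11.6 with short tails and, reversed, 9.24 under 20 nt. Where the scale or the counted reads do not show it, the cause was not tested. On scales applied to the count only after the data were seen, the number of Mir126a arms past 2-fold went from 0 to 1 in TuD-let-7 over mock and over TuD-miR-122, on all reads and on all miRNA reads alike. TuD-let-7 had the fewest non-target reads, 487713. No paired analysis was possible because each group had 1 library.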
